A study of Mus musculus with 6 samples.

Results

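Genes of fatty acid beta-oxidation in mitochondria and peroxisomes, mostly enzymes and 33 in all out of 18193 measured, were followed in mouse pancreatic islets after 24 hours with CMPF or with vehicle. The genes were taken by symbol from the annotation of the array, and all 33 were found. Each gene is represented by the probe set (a group of short probes read together) that matches a single gene and had the highest mean over the 6 arrays. By their main site, 21 genes were counted as mitochondrial and 12 as peroxisomal. The Eci2, Ech1 and Acad11 proteins, counted as mitochondrial, are also known from peroxisomes, and Amacr, counted as peroxisomal, is also known from mitochondria.

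The islets came from male CD1 mice, an outbred stock, aged 8 weeks, and were kept overnight in RPMI medium before treatment. The CMPF group (3 arrays) received 200 uM CMPF, a furan dicarboxylic acid that circulates as a product of furan fatty acids, and the vehicle group (3 arrays) received 0.1% ethanol. Whether the numbered replicates are separate animals or islet preparations is not stated, so the errors below measure the spread between these arrays, which may be technical. Arrays of the same number resembled each other, and "pair" below means the CMPF and the vehicle array of 1 number.

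Beta-oxidation shortens an acyl-CoA by an acetyl unit in a cycle of dehydrogenation, hydration, a second dehydrogenation and thiolysis. In mitochondria the first step is made by acyl-CoA dehydrogenases that act on different chain lengths and pass their electrons through the electron transfer flavoprotein to the respiratory chain. Peroxisomes start with oxidases that make hydrogen peroxide, and they handle very long, branched and bile acid side chains. In islets, fatty acid oxidation competes with glucose oxidation, and the hydroxyacyl-CoA dehydrogenase encoded by Hadh is also known to restrain insulin secretion in mice and humans.

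Markers of islet cells were bright on all arrays. The 8 beta cell markers measured (Ins2, Iapp, Pdx1 and others) averaged a log2 signal of 11.25 to 11.87 on CMPF arrays and 11.39 to 11.77 on vehicle arrays. Exocrine RNA was present too: 14 acinar cell markers, such as Ctrb1 and Cela1, averaged 11.81, 12.65 and 11.59 with CMPF (replicates 1 to 3) and 11.55, 12.62 and 10.64 with vehicle. All 14 had a higher mean with CMPF, against 50.7% of all genes. Of the 14, 11 were higher in all 3 pairs (78.6%), against 11.8% of all genes. The 6 endothelial markers also had higher means, averaging 5.18 to 5.90 with CMPF and 5.09 to 5.62 with vehicle, and 4 were higher in all 3 pairs. The 6 stellate cell markers had lower means, averaging 8.89 to 10.16 with CMPF and 9.41 to 9.84 with vehicle. All 6 were lower in pairs 1 and 2 but higher in pair 3, with median differences of -0.42, -0.52 and 0.33. The part of these 2 cell types in the results was not tested. In whole islets, fewer cells of a type and less RNA per cell cannot be told apart. The array medians lay between 5.08 and 5.15, and the 3' over 5' log2 signal of Gapdh, a sign of RNA integrity, was -0.016 to 0.017 with CMPF and -0.089 to -0.027 with vehicle. That of Actb was higher on every array, at 0.74 to 0.84 with CMPF and 0.70 to 0.83 with vehicle.

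The promoters of 3 members are shown as a description, and no difference given below rests on them. Acadvl and Etfb are the genes whose groups did not overlap, and Hadha shares its promoter with Hadhb, so that both subunits of 1 enzyme can be set side by side. Sequences are RefSeq windows of the GRCm38.p6 build, from 250 bases before the start site to 50 bases from it on. Capitals mark the hexamer AGGTCA in Acadvl (chr11:70015379-70015678, minus strand) and a match to the core of the NRF1 motif, which is GCGCA, any 1 base and GCGC, in Etfb (chr7:43443822-43444121, plus strand). In Hadha (chr5:30154931-30155230, minus strand) they mark the 228 bases that also lie in the window of Hadhb, which runs the other way from a start site 272 bases apart.
Acadvl: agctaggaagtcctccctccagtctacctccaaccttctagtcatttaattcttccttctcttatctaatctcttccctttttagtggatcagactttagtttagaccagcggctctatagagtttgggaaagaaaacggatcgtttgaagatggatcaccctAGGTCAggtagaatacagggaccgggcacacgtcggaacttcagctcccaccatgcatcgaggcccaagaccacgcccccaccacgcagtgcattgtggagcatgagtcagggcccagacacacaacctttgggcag
Etfb: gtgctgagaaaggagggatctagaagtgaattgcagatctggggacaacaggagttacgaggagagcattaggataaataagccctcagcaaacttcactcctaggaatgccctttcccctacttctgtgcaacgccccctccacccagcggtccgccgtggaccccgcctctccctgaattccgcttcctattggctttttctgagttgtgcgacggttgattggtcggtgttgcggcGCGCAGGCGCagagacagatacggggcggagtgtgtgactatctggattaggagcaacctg
Hadha: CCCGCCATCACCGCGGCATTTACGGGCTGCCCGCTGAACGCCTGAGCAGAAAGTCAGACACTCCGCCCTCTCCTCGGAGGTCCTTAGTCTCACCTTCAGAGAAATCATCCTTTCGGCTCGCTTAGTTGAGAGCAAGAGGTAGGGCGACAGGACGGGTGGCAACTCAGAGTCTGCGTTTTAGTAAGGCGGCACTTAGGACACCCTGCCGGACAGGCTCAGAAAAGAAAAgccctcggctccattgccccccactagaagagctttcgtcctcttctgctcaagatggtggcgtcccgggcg

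Windows were listed for 27 of the 33 members. Acad9, Acaa2, Decr1, Hsd17b4, Abcd2 and Amacr had no entry. Motifs were searched on both strands. The hexamer AGGTCA, the unit read by PPAR, ERR and other nuclear receptors, was found in 3 of the 27 genes (11.1%: Acadm, Acadvl and Scp2), against 18.1% of all 27025 genes with a window. The direct repeat bound by PPAR with RXR, AGGTCA on both sides of any 1 base, contains this hexamer and was in 0 of the 27 and in 0.0481% of all genes. The ERR element TNAAGGTCA, which contains it too, was in 0 of the 27 and in 1.43% of all genes. The NRF1 core was in 4 of the 27 (Abcd3, Acad10, Etfb and Etfdh), or 14.8%, against 5.19%. The GC box GGGCGG was in 21 of the 27, or 77.8%, against 38.2%. The windows of the members had a median GC content of 58.7%, against 52.7% for all windows. These matches describe letters in a short window and say nothing of binding.

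No beta-oxidation gene differed beyond the error of the arrays after adjustment over all genes. Of 18193 genes limma called 0 at an adjusted p under 0.05, in the fit without pairing (smallest adjusted p = 0.99995) and in the fit that adds the replicate number as a block (smallest adjusted p = 0.979), a background of 0% in both. Before adjustment, 205 genes (1.13%) had a limma p under 0.05 without the block, and 0 of these were members. With the block 459 genes with a higher mean (2.52%) and 233 with a lower mean (1.28%) did, again 0 of them members. Among the 9096 genes above the median signal, where most members lie, these shares were 1.12% and 1.04%. Of the cell markers above, 8 of 14 acinar and 4 of 6 endothelial markers had such a p with the block, all with a higher mean. None of the other listed cell markers did. As no gene was called after adjustment, what follows gives sizes and directions. The member differences, CMPF minus vehicle on the log2 scale, ran from -0.17 (Hsd17b4, 0.886-fold) to 0.15 (Acadm, 1.11-fold). Their 95% intervals reached from -0.64 at the lowest to 0.73 at the highest.

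**Figure D1:**
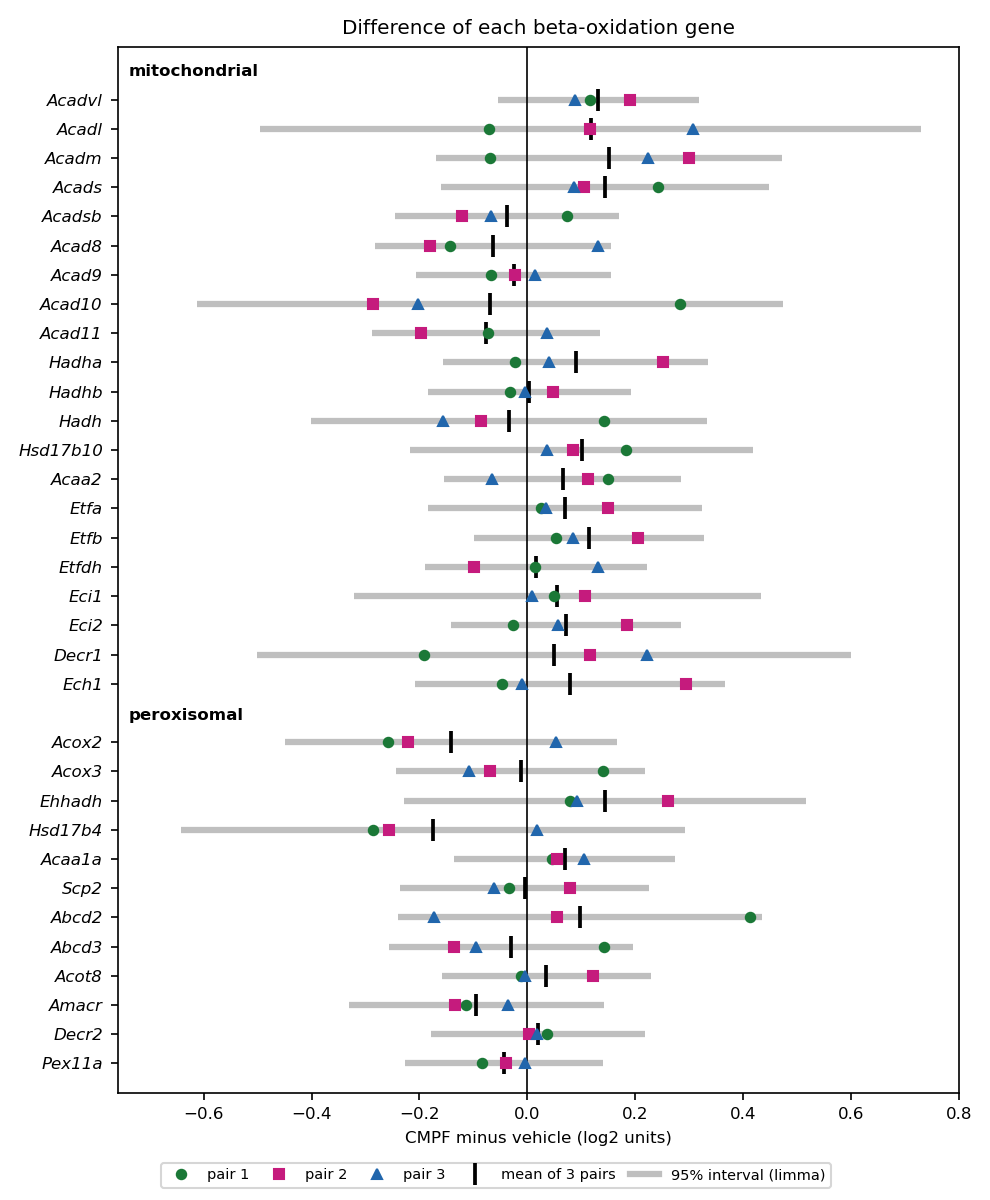
CMPF minus vehicle in log2 units for the 33 genes, ordered by role within mitochondrial (top) and peroxisomal (bottom) genes. Coloured symbols are the 3 pairs, the black tick is their mean and the grey bar the 95% interval of limma; every interval crosses 0, and Acadl, Decr1, Acad10 and Hsd17b4 have the widest.

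The mitochondrial genes lay slightly higher with CMPF and the peroxisomal genes did not. Of the 21 mitochondrial genes 15 had a positive difference (71.4%), and of the 12 peroxisomal genes 5 (41.7%), where 50.7% of all genes did and 42.3% of the genes above the median signal. The median difference was 0.066 for the mitochondrial genes and -0.0087 for the peroxisomal genes, against 0.0018 for all genes and -0.016 for the genes above the median signal. Of the mitochondrial genes 6 were higher in all 3 pairs (28.6%) and 0 lower, and of the peroxisomal genes 3 were higher (25%) and 2 lower (16.7%). Of all 18193 genes, 11.8% had 3 positive and 11.1% had 3 negative pair differences, and of those above the median signal 9.74% and 14.7%. The groups did not overlap, with CMPF higher, for 2 mitochondrial genes (9.52%) and 0 peroxisomal genes, against 2.41% of all genes and 0.978% of the brighter ones. With CMPF lower this held for 0 members, against 2.11% and 2.62%. The lists are small and their members were not chosen blind to these data, so the 2 compartments are set side by side here without a test.

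The shift of the mitochondrial genes was uneven across pairs. Their median difference was 0.014 in pair 1, 0.11 in pair 2 and 0.037 in pair 3, and 11, 14 and 15 of the 21 were higher with CMPF, where 48.8%, 52.3% and 49.2% of all genes were. For the peroxisomal genes the pair medians were 0.013, -0.018 and -0.0050. Without the second CMPF array the mitochondrial median was 0.0071. That setting keeps vehicle array 2, and arrays numbered 2 were high in both groups. The value therefore mixes the likeness of arrays of 1 number with the part of the second CMPF array, as do the other single-array settings. The mitochondrial median was 0.12 without CMPF array 3, 0.11 without CMPF array 1, 0.045 without vehicle array 1 or vehicle array 3 and 0.099 without vehicle array 2. With the mean of the acinar markers as a covariate it was 0.024. The mean log2 signal of the mitochondrial genes was 8.96, 9.07 and 8.92 on CMPF arrays 1 to 3 and 8.94, 9.01 and 8.88 on vehicle arrays 1 to 3. Within each group it was highest on array 2 and lowest on array 3, the same order as the acinar marker means above.

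**Figure D2:**
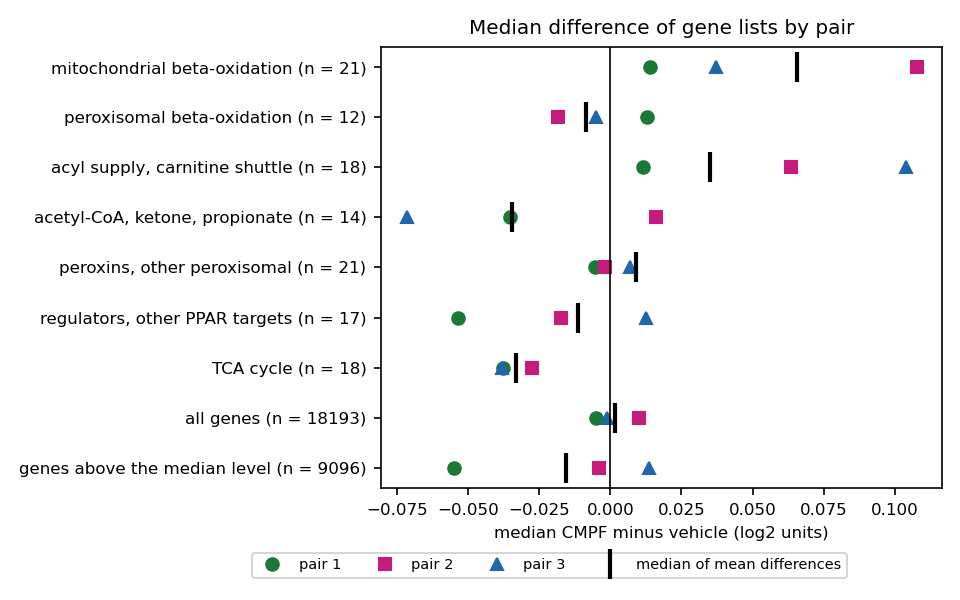
Median difference, CMPF minus vehicle in log2 units, of the 2 sets of beta-oxidation genes, of related gene lists and of all genes. Symbols are the medians of the 3 pairs and the black tick is the median of the genes' mean differences, 0.066 for mitochondrial and -0.0087 for peroxisomal genes.

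Acadvl, Acadl, Acadm and Acads, dehydrogenases that open the cycle on straight chains, all had a positive difference, between 0.12 and 0.15. Acadvl, which takes very long chains at the inner membrane, read 9.31, 9.38 and 9.28 on the CMPF arrays and 9.20, 9.19 and 9.19 on the vehicle arrays. All CMPF arrays were above all vehicle arrays, which lay very close together. The means were 9.32 ± 0.054 with CMPF and 9.19 ± 0.0036 with vehicle (SD, n = 3 each), a difference of 0.13 (SE 0.0794; 95% interval -0.055 to 0.32). Limma widens the error of so tight a gene towards that of other genes, and its adjusted p was 0.99995.

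Acads, for short chains, read 7.70, 7.90 and 7.58 with CMPF and 7.46, 7.80 and 7.49 with vehicle. Every CMPF array was above the vehicle array of its number, but the groups overlapped (difference 0.14, SE 0.130). Acadm, for medium chains, read 8.32, 8.68 and 8.32 with CMPF and 8.39, 8.38 and 8.10 with vehicle. Its difference was the highest positive value of the members, 0.15 (SE 0.137), with -0.069 in pair 1, and it was 0.032 without CMPF array 2 and 0.056 without vehicle array 3. Acadl, for long chains, varied far more between pairs than with treatment. It read 9.08, 9.86 and 9.24 with CMPF and 9.15, 9.74 and 8.93 with vehicle (difference 0.12, SE 0.261), high on both arrays numbered 2.

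On their brightest probe sets, the other 5 members of the dehydrogenase family all had a negative difference, between -0.077 and -0.025. None was lower in all 3 pairs. They are Acadsb, which acts on the isoleucine product methylbutyryl-CoA (-0.038, SE 0.0888), Acad8, which acts on isobutyryl-CoA from valine (-0.064, SE 0.0935), and Acad9, needed for complex I assembly (-0.025, SE 0.0772). Acad10 differed by -0.069 (SE 0.232) and Acad11 by -0.077 (SE 0.0903). Acad10 had the widest span, with 7.37, 6.50 and 7.08 on the CMPF arrays and 7.09, 6.78 and 7.28 on the vehicle arrays. It was lowest on both arrays numbered 2. This grouping was made with the values in view and does not strictly follow substrate. The contrast of signs between Acadvl, Acadl, Acadm and Acads and the other 5 is therefore only a description.

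Electrons from these dehydrogenases pass to the electron transfer flavoprotein, a dimer of Etfa and Etfb, and on to ubiquinone through Etfdh. Etfb read 9.89, 10.07 and 9.88 with CMPF and 9.84, 9.87 and 9.79 with vehicle. All CMPF arrays were above all vehicle arrays, but the third CMPF array (9.88) lay barely above the second vehicle array (9.87). The mean was 9.95 ± 0.11 with CMPF and 9.83 ± 0.039 with vehicle (SD, n = 3 each), a difference of 0.11 (SE 0.0911). Etfa, its partner, read 9.36, 9.65 and 9.42 with CMPF and 9.33, 9.50 and 9.38 with vehicle. It was higher in all 3 pairs, with overlap between the groups (difference 0.070, SE 0.108). Etfdh differed by 0.015 (SE 0.0877) and went both ways, with 0.014, -0.10 and 0.13 in the 3 pairs.

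**Figure D3:**
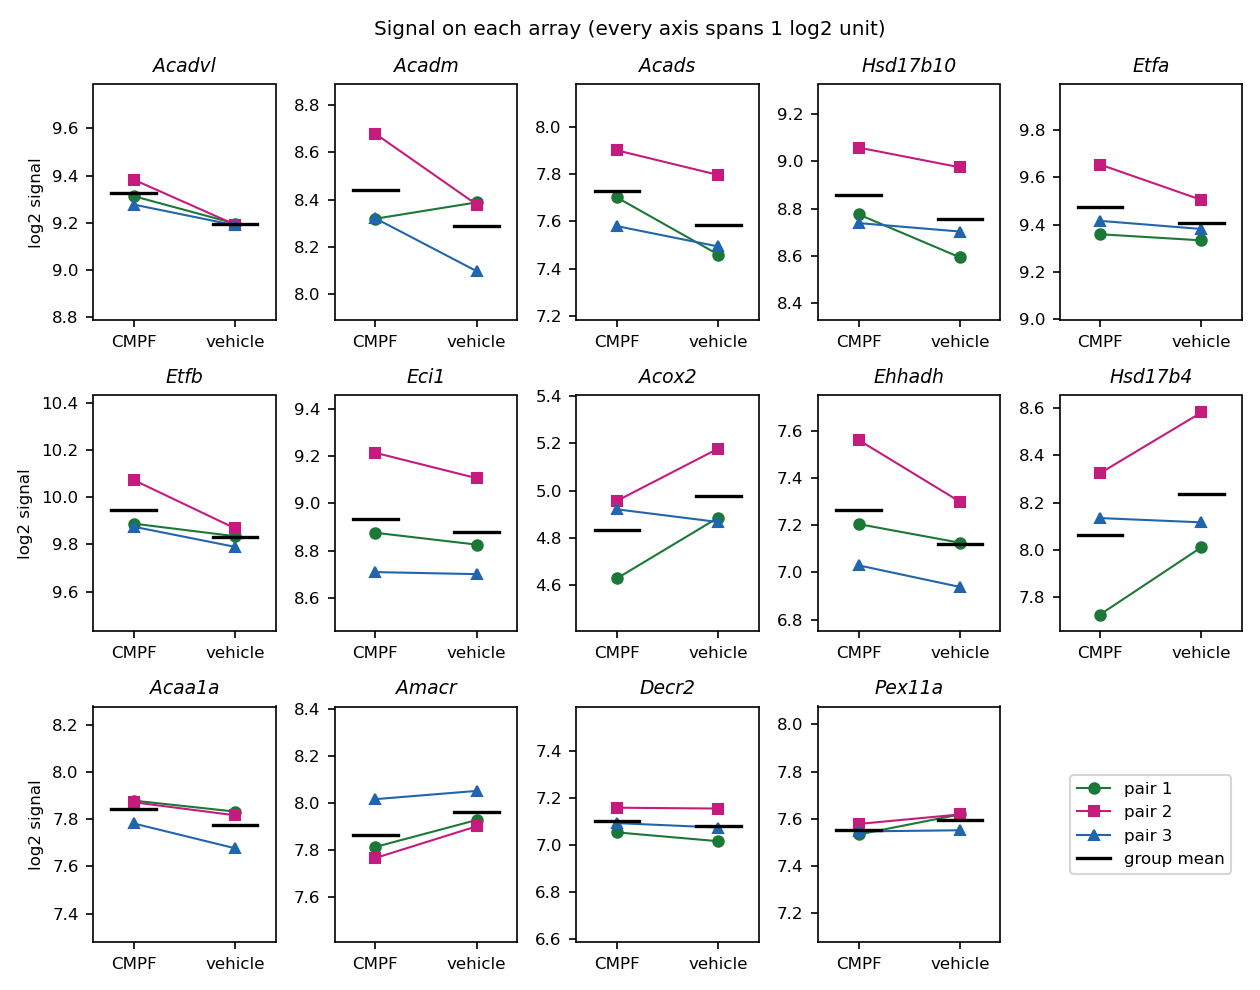
Log2 signal of 14 members on each array, CMPF at left and vehicle at right, with a line joining each pair and a black bar at each group's mean; every axis spans 1 log2 unit. Only Acadvl and Etfb have all CMPF arrays above all vehicle arrays, and Ehhadh, Eci1 and Hsd17b4 show pairs set far apart.

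The 5 genes of the later steps of the mitochondrial cycle had differences between -0.034 and 0.10. Hadha and Hadhb encode the alpha and beta subunits of the trifunctional protein, which hydrates, dehydrogenates and cleaves long chains. Hadha read 8.57, 8.88 and 8.63 with CMPF and 8.59, 8.63 and 8.59 with vehicle (difference 0.089, SE 0.105), set apart by the second CMPF array alone. Hadhb, from the other side of the shared promoter, read 10.36, 10.33 and 10.37 with CMPF and 10.39, 10.28 and 10.38 with vehicle (difference 0.0040, SE 0.0805). The pair differences were -0.023, 0.25 and 0.040 for Hadha and -0.032, 0.048 and -0.0037 for Hadhb, with the same sign in pairs 1 and 2.

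Hadh, the short-chain hydroxyacyl-CoA dehydrogenase, gave a strong signal of 13.17, 12.69 and 12.64 with CMPF and 13.03, 12.78 and 12.80 with vehicle. The first array was the highest in both groups, and the groups overlapped (difference -0.034, SE 0.157). Hsd17b10, a mitochondrial dehydrogenase that also takes part in isoleucine breakdown and in mitochondrial tRNA processing, read 8.78, 9.06 and 8.74 with CMPF and 8.59, 8.97 and 8.70 with vehicle. It was higher in all 3 pairs, with overlap (difference 0.10, SE 0.136). Acaa2, the thiolase that ends the cycle, differed by 0.066 (SE 0.0935), with 0.15, 0.11 and -0.065 in the pairs.

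The 4 auxiliary enzymes that bring unsaturated chains into the cycle all had a positive difference, between 0.049 and 0.079. Eci1, an enoyl-CoA isomerase, read 8.88, 9.21 and 8.71 with CMPF and 8.83, 9.11 and 8.70 with vehicle. It was higher in all 3 pairs, by only 0.0086 in pair 3 (difference 0.055, SE 0.161). The isomerase Eci2 differed by 0.072 (SE 0.0908), the dienoyl-CoA isomerase Ech1 by 0.079 (SE 0.122) and the dienoyl-CoA reductase Decr1 by 0.049 (SE 0.235). Ech1 was set apart by the second CMPF array, at 9.18 against 8.79 and 8.81 on the other CMPF arrays and 8.81 to 8.88 on vehicle arrays. Decr1 resembled Acadl in its spread, from 8.20 to 8.84 with CMPF and from 7.98 to 8.73 with vehicle.

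Among the peroxisomal enzymes that carry out the cycle, signs were mixed. Ehhadh, the L-bifunctional enzyme and a classic PPAR alpha target in rodent liver, read 7.20, 7.56 and 7.03 with CMPF and 7.13, 7.30 and 6.94 with vehicle. It was higher in all 3 pairs, with overlap between the groups (difference 0.14, SE 0.159). Hsd17b4, the D-bifunctional enzyme, went the other way in 2 pairs. It read 7.73, 8.32 and 8.13 with CMPF and 8.01, 8.58 and 8.12 with vehicle (difference -0.17, SE 0.200). Single arrays moved this value widely: it was -0.0069 without CMPF array 1 and -0.0020 without vehicle array 2, and -0.31 without CMPF array 2 and -0.29 without vehicle array 1.

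Acox2, the oxidase of bile acid intermediates and branched chains, gave a low signal of 4.63, 4.96 and 4.92 with CMPF and 4.89, 5.18 and 4.87 with vehicle. It was lower in pairs 1 and 2 and higher in pair 3 (difference -0.14, SE 0.132). Acox3, a second oxidase of branched chains, differed by -0.012 (SE 0.0982). Acaa1a, the peroxisomal thiolase, read 7.88, 7.87 and 7.78 with CMPF and 7.83, 7.82 and 7.68 with vehicle. It was higher in all 3 pairs by similar amounts (difference 0.069, SE 0.0875), and signal on this probe set may be shared with its near-identical paralog Acaa1b. Scp2, which encodes a sterol carrier protein and a thiolase for branched chains, differed by -0.0049 (SE 0.0986).

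The remaining peroxisomal genes import, prepare or release acyl chains, except Pex11a, which acts in peroxisome division. Amacr, the racemase that readies branched chains, read 7.81, 7.77 and 8.02 with CMPF and 7.93, 7.90 and 8.05 with vehicle. It was lower in all 3 pairs, with overlap (difference -0.095, SE 0.101). Pex11a, a membrane protein of peroxisome division, read 7.53, 7.58 and 7.55 with CMPF and 7.62, 7.62 and 7.55 with vehicle. It too was lower in all 3 pairs, with almost no difference in pair 3 (mean difference -0.043, SE 0.0784). Decr2, the peroxisomal dienoyl-CoA reductase, read 7.05, 7.16 and 7.09 with CMPF and 7.02, 7.15 and 7.07 with vehicle, higher in all 3 pairs but by no more than 0.037 in any.

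The ABC transporters Abcd2 and Abcd3, which carry acyl-CoA into the peroxisome, differed by 0.098 (SE 0.144) and -0.030 (SE 0.0962). The thioesterase Acot8 differed by 0.035 (SE 0.0826). Abcd2, Acox2 and Acox3 were the 3 members whose mean signal lay below the median of all genes, 6.42. The deposited values hold no detection call, so whether these were expressed could not be told.

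Variation between pairs exceeded the CMPF difference for most members. Taking the mean of the 2 arrays of each number, the span over the 3 numbers was larger than the CMPF difference for 30 of the 33 genes (90.9%), close to the 87.5% of all genes. The median span was 0.172 log2 units for the members, where the median size of a CMPF difference was 0.0692. The vehicle arrays alone spanned more than the CMPF difference for 14 of 21 mitochondrial genes (66.7%) and 12 of 12 peroxisomal genes, against 88.8% of all genes and 91.1% of the brighter ones. The same number held the highest array in both groups for 18 of the 33 genes (54.5%), against 50.4% of all genes and 60.1% of the brighter ones. For 13 of these 18 it was number 2, among them Acadl, Decr1, Eci1 and Hsd17b4. Number 2 also led for 3610 of the 9163 such genes among all genes, and for 2521 of the 5471 among the brighter ones. The acinar markers were highest on both arrays numbered 2 as well. With their mean as a covariate, the differences of Acadl, Decr1 and Eci1 were -0.078, -0.13 and -0.054, and that of Hsd17b4 was -0.28.

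**Figure D4:**
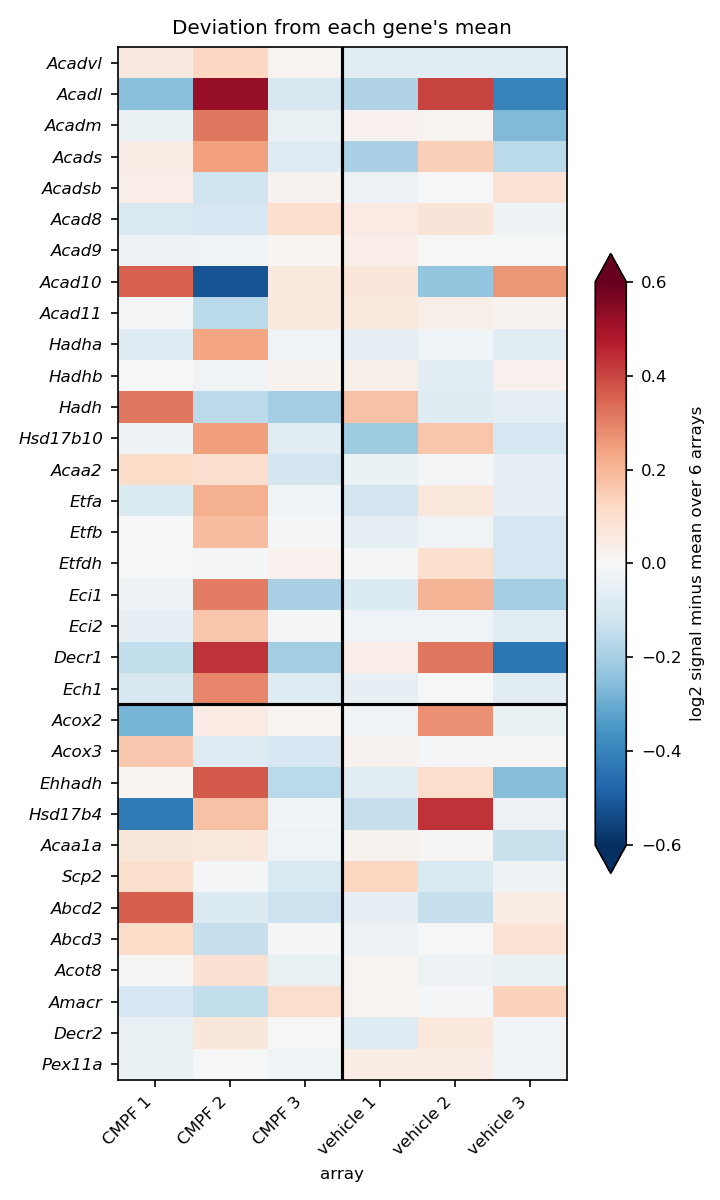
Log2 signal of each of the 33 genes minus its own mean over the 6 arrays, by array, with CMPF arrays left of the vertical line and mitochondrial genes above the horizontal line. Red columns at CMPF 2 and vehicle 2 in Acadl, Decr1, Eci1 and Acads show the likeness of arrays of the same number.

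Several genes were read by more than 1 probe set, and these did not always give the same sign. Of the 59 single-gene probe sets of the members, 26 were not the brightest of their gene, and 16 of those 26 lay below the median signal of all genes. In 18 genes with several sets, the second brightest had the sign of the brightest in 8 and the opposite sign in 10. All sets had 1 sign in 7 genes. Acaa2 was one of these, with 0.066, 0.12 and 0.14 on its 3 sets. The second set of Acaa2 read 8.17, 8.41 and 8.10 with CMPF and 8.02, 8.32 and 7.97 with vehicle, higher in all 3 pairs.

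Among genes with bright sets, Scp2 showed a wide disagreement. Its second set, with a mean signal of 10.67 against 10.83 for the brightest, read 10.43, 10.40 and 10.75 with CMPF and 10.73, 10.96 and 10.79 with vehicle. It was lower in all 3 pairs, with a difference of -0.30, where the brightest set gave -0.0049. The gene makes several transcripts, and which of them each set reads is not given in the sources used here. For Hsd17b4 the second set, nearly as bright (7.95 against 8.15), differed by 0.024, where the brightest set gave -0.17. For Hsd17b10 and Acaa1a the second sets differed by -0.16 and -0.33, and in each the array vehicle 2 stood alone, at 7.19 and 6.61. Abcd2 was dim on all 4 of its sets, and all 4 gave a positive difference. The second of them read 3.39, 3.23 and 3.25 with CMPF and 3.17, 2.90 and 3.05 with vehicle, without overlap.

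**Figure D5:**
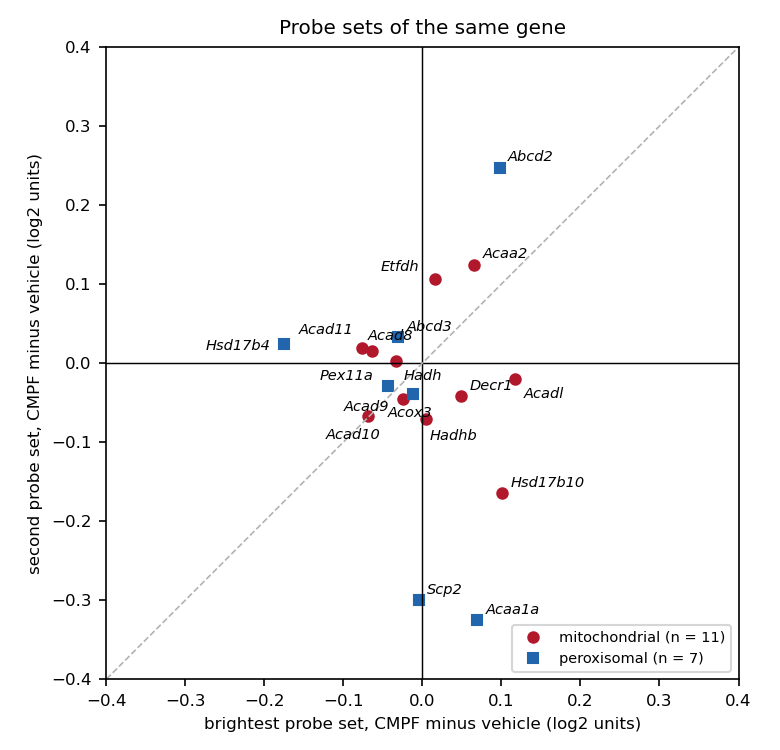
Difference of the second brightest probe set (vertical) against that of the brightest (horizontal), CMPF minus vehicle in log2 units, for the 18 genes with several probe sets; the dashed line marks equal values. The 10 genes in the upper left and lower right fields have opposite signs, and Scp2, Acaa1a, Hsd17b10 and Hsd17b4 lie farthest from the line.

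Genes that feed the cycle or take up its products were read in the same fit, and 0 of them were called by limma in either direction, with or without the block. Before adjustment, 0 of them had a p under 0.05 without the block, and with it Acacb, Cat, Plin2 and Ucp3 did, all with a higher mean under CMPF. These were 1 of 18 genes of acyl supply and shuttle, 1 of 21 peroxisomal genes and 2 of 17 regulators and PPAR targets. Of all genes, 2.52% had such a p with a higher mean and 1.28% with a lower one. Of 18 genes of acyl supply and the carnitine shuttle, 4 were higher in all 3 pairs (22.2%) and 1 lower (5.56%), with a median difference of 0.035. The shares of all genes were 11.8% and 11.1%. The carnitine transferases Cpt1a and Cpt2, which move long chains into mitochondria, differed by 0.15 (SE 0.238) and 0.099 (SE 0.119), the thioesterase Acot2 by 0.10 (SE 0.311) and Acacb, which makes the malonyl-CoA that inhibits this import, by 0.26 (SE 0.203). All 4 were higher in all 3 pairs. Acacb was dim, with a mean signal of 5.37 against a median of 6.42 for all genes. Acot13, a second thioesterase, was lower in all 3 (-0.055, SE 0.0949). The carnitine acetyltransferase Crat differed by 0.20 (SE 0.139), with -0.064 in pair 3.

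Of 14 genes listed for acetyl-CoA, ketone and propionate disposal, 5 had a positive difference, 0 were higher and 4 lower in all 3 pairs (28.6%), and the median was -0.034. All 14 lie among the genes above the median signal, of which 14.7% were lower in all 3 pairs, 42.3% had a positive difference and the median was -0.016. The 4 included Echs1 (-0.053, SE 0.0863), the short-chain enoyl-CoA hydratase, which makes the hydration step of the mitochondrial cycle itself and is not among the 33. The others were the ketone body enzymes Bdh1 (-0.094, SE 0.0902) and Oxct1 (-0.093, SE 0.126), and Gcdh of lysine breakdown (-0.086, SE 0.0875). Mccc1, of leucine breakdown, had the smallest p of the list and a positive difference (0.12, SE 0.108), with -0.040 in pair 3.

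Of 18 genes of the TCA cycle, 5 had a positive difference, 6 were lower in all 3 pairs (33.3%) and 2 higher (11.1%), with a median of -0.033. All 18 lie above the median signal too, where the shares lower and higher in all 3 pairs were 14.7% and 9.74%. Fumarase, Fh1, differed by -0.12 (SE 0.0836) and the complex II subunit Sdhd by -0.042 (SE 0.0776), and both had all CMPF arrays below all vehicle arrays, which held for 2.62% of the brighter genes. Ogdh, Dlst and Dld, the 3 subunits of the oxoglutarate dehydrogenase complex, differed by -0.12 (SE 0.147), -0.083 (SE 0.0884) and -0.11 (SE 0.114). The sixth gene with 3 negative pairs was Mdh1, a mainly cytosolic malate dehydrogenase (-0.10, SE 0.116). Idh3a and Idh3b, subunits of the NAD-dependent isocitrate dehydrogenase, were higher in all 3 pairs, by 0.046 (SE 0.0796) and 0.037 (SE 0.120). The pair medians of the TCA cycle list were -0.038, -0.028 and -0.038.

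Peroxins and other peroxisomal genes were split evenly, with 4 of 21 higher in every pair, 4 lower in every pair (19% each) and a median of 0.0092. The shares were 11.8% and 11.1% of all genes, and 9.74% and 14.7% of those above the median signal. Catalase, Cat, which removes the hydrogen peroxide made by the oxidases, was the one with the largest difference (0.32, SE 0.298). It was higher in all 3 pairs, by 0.25, 0.25 and 0.45, and its SE in the fit with the block was 0.083. Abcd4, an ABC transporter, differed by 0.18 (SE 0.105), Pex16, of peroxisome assembly, by 0.15 (SE 0.160) and Acaa1b by 0.078 (SE 0.141), all higher in all 3 pairs. Abcd4 and Acaa1b were dim, with mean signals of 5.85 and 2.88 against a median of 6.42 for all genes. Pex2 (-0.077, SE 0.0932), Phyh (-0.059, SE 0.0879), Pecr (-0.069, SE 0.0809) and Nudt7 (-0.13, SE 0.198) were lower in all 3. Pex11g, of peroxisome division, differed by 0.13 (SE 0.0942), with -0.041 in pair 3.

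Of 17 regulators and other PPAR targets, 2 were higher (11.8%) and 1 lower in all 3 pairs (5.88%), near the background, with a median of -0.011. The lipid droplet coat gene Plin2 differed by 0.24 (SE 0.337) and Ucp3, a mitochondrial carrier, by 0.25 (SE 0.107), both higher in all 3 pairs. The groups of Ucp3 did not overlap, with CMPF higher, which held for 2.41% of all genes. Its signal was dim, with a mean of 5.15 against a median of 6.42 for all genes. Fabp3, a fatty acid binding protein, was lower in all 3 (-0.17, SE 0.104).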

How the data were processed

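From each of 6 islet samples, 200 ng of total RNA was biotin-labelled for Affymetrix arrays, per the labels' protocols. The submitters' processing notes name RMA and Affymetrix Expression Console 1.1; the deposited table holds log2 values. RMA gives all arrays nearly 1 distribution, so a difference is relative to the other genes. The sources used here do not give the settings or a genome build. With 3 arrays a group, their number limits the precision.

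Of 45101 probe sets, 64 were controls, 34945 had 1 gene, 932 several and 9160 none in the platform annotation. The single-gene set with the highest mean stood for each of 18193 genes, with no filter on dim genes. Symbols were checked by Entrez ID against RefSeq (34741 sets matched, 0 symbols changed). A probe set name ending in _x_at or _s_at marks probes that may also match other transcripts.

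CMPF was compared with vehicle by lmFit and eBayes (limma 3.58.1, R 4.3.3; two-sided). P-values were adjusted by Benjamini and Hochberg's method across the 18193 genes, with 0.05 as the threshold. Standard errors and intervals come from the fit without the block, so they include the variation between pairs. With the block the median SE of the members was 0.082, against 0.099 without it. It was 0.097 against 0.261 for Acadl and 0.083 against 0.298 for Cat. Deviations from the group means correlated at 0.488 to 0.638 between arrays of 1 number, so the numbers were taken to pair the samples, on the evidence of the data and not of the labels. On simulated data (18193 genes), the same fit recovered 22% of the genes shifted by 0.5 on the log2 scale. It recovered 70% of those shifted by 1 and 94% of those shifted by 2, and it made 6 false calls. The simulated noise was independent between arrays, without the likeness of arrays of 1 number, and every shift was larger than any member difference. These rates therefore do not tell how often differences of the members' size would be found here. Alternatives covered normalization, filters on dim genes, probe set choice, the block, array weights, the acinar marker mean as a covariate, and leaving out arrays or pairs.

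The members and lists were chosen with earlier results of these data known, and the grouping by role was made after the values were seen. All 33 members are named. Values on each array are given for members without overlap, with 1 direction in all 3 pairs, or among the 4 smallest p of their compartment; those of Acadl, Acad10, Hadha, Hadhb, Hadh, Ech1 and Decr1 and of second probe sets were added after the values were seen. Genes of the other lists are named where they had 1 direction in all 3 pairs or 1 of the 2 smallest p of their list. Genes of these lists without a single-gene probe set were not analysed here.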

Additional observations from a re-analysis of the deposited data

How the results depend on the processing

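Under all 18 alternatives 0 genes and 0 members passed the threshold, and the smallest adjusted p of a member was 0.978. The replicate block left the medians at 0.066 and -0.0087 and changed no call. The setting without _x_at and _s_at probe sets was chosen after seeing the data. The mitochondrial median was above 0 in all 18, at 0.0071 to 0.1231 with arrays or pairs left out, and with a pair left out 7 to 11 mitochondrial genes were higher in both remaining pairs. The peroxisomal median did not keep its sign. It was 0.0114 after a second quantile normalization, -0.0311 with probe set means, -0.0304 with array weights and -0.041 to 0.0296 with arrays or pairs left out. The peroxisomal genes higher in every pair numbered 2 to 4.

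Acadvl, Acadm, Acads, Acad8, Acad11, Acaa2, Etfb, Eci2, Acox2, Amacr and Pex11a, 11 of the 33 members, kept their sign in every setting that holds them, which is all 18 except for Acox2, removed by the filter at the median. Hsd17b4 kept its sign with arrays or pairs left out, but ranged from -0.3065 to -0.002. The sign turned for Abcd3 (0.0037) and Scp2 (0.0344) after the second quantile normalization, for Hsd17b10 (-0.0319), Acaa1a (-0.1282), Abcd3 (0.0011) and Acad9 (0.0113) with probe set means, and for Hadhb (-0.0109) with array weights. With the acinar covariate it turned for Acadl (-0.078), Acad10 (0.0773), Etfdh (-0.0142), Eci1 (-0.0543), Decr1 (-0.1306), Scp2 (0.0047) and Decr2 (-0.0014), and without _x_at and _s_at sets for Hadh (0.0022) and Hsd17b4 (0.0238). Leaving out 1 array or pair gave differences of both signs for Acadl (-0.1144 to 0.3502), Acadsb (-0.0939 to 0.0118), Acad10 (-0.2645 to 0.1736), Hadha (-0.0058 to 0.1511), Hadhb (-0.0292 to 0.0236), Hadh (-0.2004 to 0.0619), Etfa (-0.0189 to 0.1288), Etfdh (-0.0428 to 0.0728), Eci1 (-0.0853 to 0.1702), Decr1 (-0.1557 to 0.2197), Ech1 (-0.0481 to 0.1472), Acox3 (-0.0958 to 0.0353), Ehhadh (-0.0039 to 0.2618), Abcd2 (-0.0593 to 0.2333), Abcd3 (-0.1165 to 0.032), Acot8 (-0.0083 to 0.0661), Scp2 (-0.0536 to 0.0581) and Decr2 (-0.0129 to 0.0564). The cause of these turns was not tested.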
